A study of Mus musculus with 73 samples.

Results

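The contacts described here are those of a 30 kb interval of the mouse X chromosome, X:100620001-100650000 on the build mm9, measured by chromosome conformation capture carbon copy (5C). The interval was chosen from earlier results on these libraries and holds the fragments that deletions at Xite remove. A primer pair was counted as a contact of the interval where exactly 1 of its 2 restriction fragments had its midpoint inside and the other lay elsewhere on the X. The deposited primer lists allow 5145 such pairs of 297498 in all. Of the 278684 pairs with a count in at least 1 of the 10 libraries, 4919 were contacts of the interval, and single libraries held a count for 2275 to 3421 of them. Because values of these 10 libraries placed the interval, every difference between genotypes, wild type (WT) included, is given as a description. Counts of calls from fits over all features are printed beside their share of all features, and nothing rests on them.

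All libraries came from embryonic stem (ES) cells of a male mouse, line E14Tg2a of strain 129/Ola with an XY karyotype. They were kept feeder-free on gelatin, and the medium held serum and leukemia inhibitory factor (LIF). Edited clones were made with CRISPR plasmids or TALENs, per the labels' protocols, and none of the cells was differentiated or treated further. XiteE-del was represented by the clones F11 and G11. XiteE-inv was represented by a single clone, number 4, profiled in 2 libraries. XiteC-del was represented by the clones E2 and E5, and XiteC-inv by the clones 62 and 65. WT was the unedited line E14, also profiled in 2 libraries. The genotype names pair a letter, E or C, with a deletion or an inversion at Xite; what the letters stand for and where each edit begins and ends are not given in the sources used here. Markers of ES cells were not analysed here, since 5C holds no RNA.

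Xist is a long noncoding RNA that spreads over the X it is transcribed from and silences its genes, and Tsix is transcribed across Xist in the opposite direction and keeps it low in undifferentiated ES cells. Xite is an enhancer of Tsix that lies just upstream of the Tsix start, and it is itself transcribed. Both genes sit in the X-inactivation centre, which is folded into a pair of neighbouring topologically associating domains, one with Tsix and Xite and the other with Xist. In 5C, cross-linked chromatin is cut and ligated, and a forward and a reverse primer are joined only where their fragments were ligated, so a count stands for a contact between 2 fragments. In the gene order of the assembly GRCm38.p6, rising coordinates run through Cdx4, Chic1, Tsx, Tsix, Xist, Jpx, Ftx and Rlim. Partners below the interval are called the lower side here, and partners above it the higher side.

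Library totals ran from 16267499 to 23928188 counts, and levels are given as counts scaled to a library total of 1000000 (CPM). WT 2 and XiteE-inv 2 carry the code B101 in the labels and the other 8 libraries carry B100; no source used here gives the meaning of the codes. The B101 libraries stood apart. Of their X-X counts, 6.87% and 7.39% joined fragments over 1200 kb apart, against 14.6% to 18.4% in the B100 libraries. Both libraries of XiteE-del, XiteC-del and XiteC-inv are B100, so for these genotypes ratios to WT 1 alone, called within B100, are printed beside the ratios to both WT libraries. For XiteE-inv the ratio within B100 sets its library 1 against WT 1.

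The interval held 10 fragments, with forward and reverse primers alternating from 573 to 582. Fragment 573 spans X:100618973-100623270, 574 spans X:100623271-100629519, 575 spans X:100629520-100633845 and 576 spans X:100633846-100636562. Fragment 577 spans X:100636563-100639613, 578 spans X:100639614-100640516, 579 spans X:100640517-100641123 and 580 spans X:100641124-100642113. Fragment 581 spans X:100642114-100642408 and 582 spans X:100642409-100647077. Their summed levels in WT ran from 408 ± 27.3 CPM at 573 to 4329 ± 1378 CPM at 581 (SD, n = 2), and 581 is the shortest of them at 295 bp. Primer efficiency was not measured, so differences in level between fragments are not read as differences in contact. The nearest fragments outside the rule were 572, whose midpoint lies 1.26 kb below the interval, and 583, whose midpoint lies 1.71 kb above it. Fragment 572 summed to 1868 and 1855 CPM in XiteE-del, 1833 and 2066 in XiteE-inv, 1869 and 1784 in XiteC-del, 1871 and 2139 in XiteC-inv, and 1832 and 2157 in WT. Fragment 583 summed to 2168 and 2182 CPM in XiteE-del, 1990.3 and 2575 in XiteE-inv, 2450.2 and 2393 in XiteC-del, 2133 and 2424 in XiteC-inv, and 2086 and 2637 in WT. At both of these neighbours the edited libraries lay near or within the WT values.

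In the XiteE-del clones the 3 lowest-lying fragments lost most of their contacts, 573 less completely than 574 and 575. Fragment 575 summed to 59.1 and 33.9 CPM in XiteE-del, against 1972 and 2337 CPM in WT. Fragment 574 summed to 30.7 and 23.5 CPM in XiteE-del, against 418 and 611 CPM in WT. Fragment 573 summed to 59.2 and 64.9 CPM in XiteE-del, against 389 and 428 CPM in WT. With lower-side partners 573 held 4.23% of its WT level. With higher-side partners it held 48.2%, at 44.7 and 53.4 CPM in XiteE-del, against 108 and 95.5 CPM in WT. All 3 fragments are called lost or lacking in XiteE-del below, 573 with this remainder. Little was left close by: with partners within 300 kb of the edges alone, fragment 575 held 0.311% of its WT level, 574 held 0.593% and 573 held 8.16%. Fragments 576 to 582 kept their contacts in these clones, with sums between 828 and 5961 CPM.

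In the XiteC-del clones a neighbouring stretch was missing. Fragment 577 summed to 70.0 and 79.1 CPM in XiteC-del, against 1356 and 1562 CPM in WT. Fragment 576 held 31.2 and 34.2 CPM with lower-side partners in XiteC-del, against 899 and 1319 CPM in WT. Its sum over all partners nevertheless stood at 1630.2 and 1777 CPM in XiteC-del, against 3012 and 1937 CPM in WT. Fragments 573, 574 and 575, which XiteE-del lacks, were present in XiteC-del at 329 and 373, 418 and 417 and 1710.2 and 1645 CPM. The counts therefore placed the losses of the 2 deletions in adjoining fragments with none in common, and fragments 578 to 582 were kept in every genotype.

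Most of what fragment 576 kept in XiteC-del came from 2 primer pairs, the ones with the most counts of all contacts of the interval. The pair 748-576 reaches the fragment X:101155835-101158025, 507 kb above the interval, and had 935 and 933 CPM in XiteE-del, 1004 and 136 in XiteE-inv, 970.0 and 984 in XiteC-del, 1307 and 1103 in XiteC-inv, and 946 and 111 in WT. The pair 714-576 reaches X:101078199-101083750, 431 kb above the interval, and had 555 and 545 CPM in XiteE-del, 564 and 44.8 in XiteE-inv, 449.6 and 543 in XiteC-del, 716 and 539 in XiteC-inv, and 591 and 31.3 in WT. Every B100 library, XiteC-del clones included, thus held at least 449.6 CPM of each pair, and both B101 libraries at most 136. Without them fragment 576 held 211 and 251 CPM in XiteC-del, against 1476 and 1795 CPM in WT. The next pair by counts, 1021-580, showed the same division, with 290.1 and 29.0 CPM in XiteE-inv 1 and 2 and 326 and 31.1 CPM in WT 1 and 2. Why these pairs follow the code and keep their level where the fragment is otherwise lost was not tested.

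**Figure D1:**
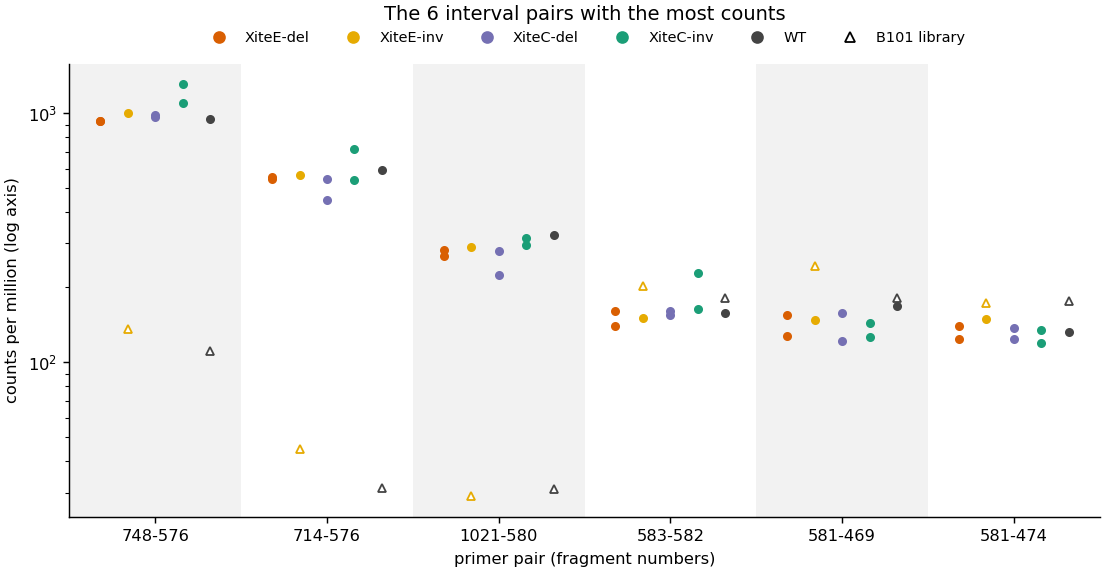
CPM (log axis) of the 6 primer pairs of the interval with the most counts, 1 point per library, coloured by genotype; open triangles are the B101 libraries XiteE-inv 2 and WT 2. For the pairs 748-576, 714-576 and 1021-580 the B101 libraries lie far below every B100 library, whatever the genotype, and the other 3 pairs show no such gap.

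Both inversions kept all 10 fragments and differed from WT in short-range pairs. The pair 575-572, across the lower edge, had 211 and 341 CPM in XiteE-inv, against 91.1 and 123 CPM in WT. The pair 573-572, whose fragments adjoin in the reference genome, had 3.33 and 12.4 CPM in XiteE-inv, against 19.2 and 30.6 CPM in WT. Contact with 572 was thus higher than in WT for fragment 575 and lower for 573, with no overlap between the genotypes in either pair. Inside the interval, fragment 575 in XiteE-inv lay below both WT libraries with each partner above it. The pair 575-576 stood at 36.7% of WT, 575-578 at 53.6%, 575-580 at 52.3% and 575-582 at 75.0%. The pair 575-574 overlapped WT. The pair 577-578, both inside the interval, had 52.2 and 93.4 CPM in XiteC-inv, against 248 and 312 CPM in WT. The pair 577-574 had 58.9 and 43.1 CPM in XiteC-inv, against 25.0 and 29.1 CPM in WT. These pairs were picked after their values were seen.

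**Figure D2:**
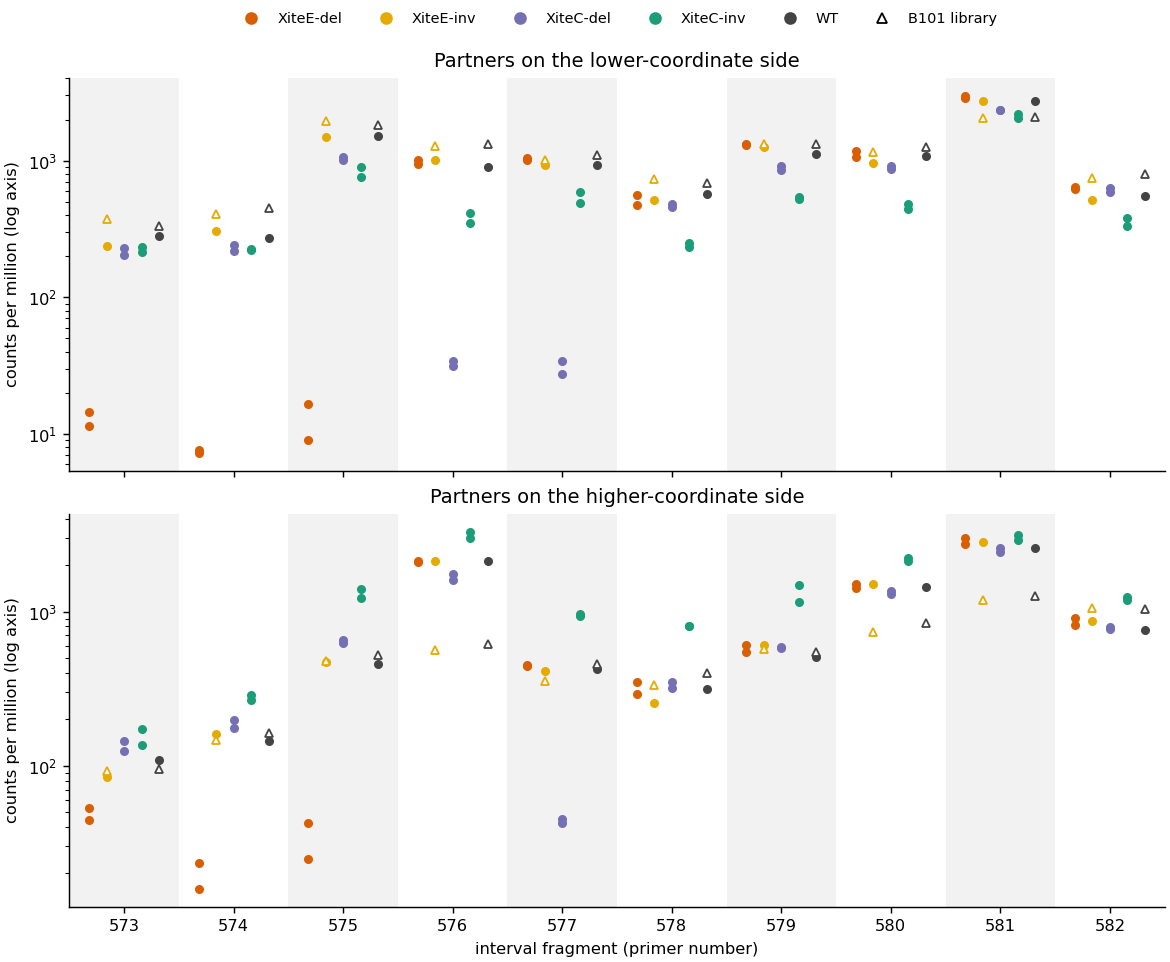
Summed CPM (log axis) of each interval fragment with lower-side partners (top) and higher-side partners (bottom), 1 point per library, genotypes left to right as in the legend with WT last; open triangles are B101 libraries. XiteE-del points drop at 573 to 575 and XiteC-del points at 577 and, on the lower side, at 576. XiteC-inv points lie below both WT points on the lower side at every fragment but 581 and above both on the higher side at all 10. The share of all X fragments with levels placed this way is not given here, so these positions are a description only.

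The genotypes differed less in the total of all contacts of the interval than in how it divided between the 2 sides. Summed over both sides, the interval held 17450.4 and 17195 CPM in XiteE-del, 19273 and 16539.7 in XiteE-inv, 14863 and 15087 in XiteC-del, 20123 and 20488 in XiteC-inv, and 18793 and 17135 in WT. On the lower side it held 8453 and 8653 CPM in XiteE-del, 9958 and 11029 in XiteE-inv, 6852 and 6652 in XiteC-del, 5819.8 and 6039 in XiteC-inv, and 9946 and 11182 in WT. On the higher side it held 8997 and 8541 CPM in XiteE-del, 9315 and 5510.4 in XiteE-inv, 8011 and 8436 in XiteC-del, 14304 and 14449 in XiteC-inv, and 8847 and 5953 in WT. XiteC-inv had the lowest lower-side and the highest higher-side sums of the 10 libraries.

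Relative to WT, the lower-side sum of XiteC-inv differed by -0.83 on the log2 scale (-0.75 within B100) and the higher-side sum by 0.96 (0.70). The lower-side sum of XiteC-del differed by -0.65 (-0.56) and that of XiteE-del by -0.30 (-0.22). On the higher side the deletions stood at 0.15 and 0.24 against both WT libraries but at -0.11 and -0.01 within B100, so the sign there rested on WT 2. XiteE-inv stayed within 0.01 of WT on the lower side and, within B100, at 0.07 on the higher side. With 2 libraries against 2, an exact two-sided permutation test cannot go below p = 0.333, so none was run on these sums.

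The deletions remove fragments, so the sums were repeated over 578 to 582, which every genotype keeps. On the lower side these 5 fragments held 6463 and 6564 CPM in XiteE-del, 5973 and 6003 in XiteE-inv, 5292 and 5119 in XiteC-del, 3761 and 3691 in XiteC-inv, and 6049 and 6165 in WT. On the higher side they held 6293 and 5898 CPM in XiteE-del, 6069 and 3882 in XiteE-inv, 5413 and 5678 in XiteC-del, 8412 and 8661 in XiteC-inv, and 5597 and 4096 in WT. XiteC-inv differed from WT by -0.71 on the lower side (-0.70 within B100) and by 0.82 on the higher side (0.61). For XiteC-del the lower-side difference was -0.23 (-0.22 within B100), against -0.65 over all 10 fragments. This sum leaves out 573, 574 and 575, which XiteC-del also keeps. Their lower-side differences were -0.50, -0.64 and -0.68 (-0.37, -0.24 and -0.55 within B100). With partners over 30 kb away, 578 to 582 differed in order by -0.85, -0.86, -0.83, -0.08 and -0.51 (-0.67, -0.66, -0.72, -0.27 and -0.14 within B100). For XiteE-del the lower-side difference over 578 to 582 was 0.09 (0.11 within B100), so the sum over all distances lay above WT. Partners 30 to 100 kb away were nevertheless lower than in WT, with a log2 difference of -0.43 (-0.36 within B100), as given below. At 100 to 300 kb the difference was -0.15, but -0.03 within B100.

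Distance from the interval showed where these differences lay. On the lower side, partners 30 to 100 kb away summed to 1101 and 1163 CPM in XiteE-del, 1697 and 2066 in XiteE-inv, 1113 and 1011 in XiteC-del, 768 and 806 in XiteC-inv, and 1894 and 2351 in WT. Partners 100 to 300 kb away on that side summed to 2690.3 and 2731 CPM in XiteE-del, 3341 and 4098 in XiteE-inv, 1920.3 and 1838 in XiteC-del, 1802 and 1855 in XiteC-inv, and 3453 and 4158 in WT. In both bands the XiteC-del and XiteC-inv libraries lay below both WT libraries, and so did XiteE-del, but these sums include the fragments that the deletions lack. XiteE-inv lay within or just below the WT values, with its B101 library the higher in both bands, as in WT.

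Over the kept fragments 578 to 582 the gaps of the deletions were smaller. At 30 to 100 kb these fragments held 859 and 809.5 CPM in XiteE-del, 931 and 1066 in XiteE-inv, 818 and 777 in XiteC-del, 485 and 444 in XiteC-inv, and 1068 and 1184 in WT. At 100 to 300 kb they held 2059 and 2105 CPM in XiteE-del, 2141 and 2521 in XiteE-inv, 1559 and 1442 in XiteC-del, 1254 and 1208 in XiteC-inv, and 2130.2 and 2505 in WT. XiteE-del, XiteC-del and XiteC-inv again lay below both WT libraries in both bands. Their log2 differences at 30 to 100 kb were -0.43, -0.50 and -1.28 (-0.36, -0.42 and -1.20 within B100). Those at 100 to 300 kb were -0.15, -0.63 and -0.91 (-0.03, -0.51 and -0.79 within B100). XiteE-inv also lay below both WT libraries at 30 to 100 kb, with a log2 difference of -0.17 (-0.20 within B100). It overlapped WT at 100 to 300 kb. Within 30 kb below the interval the order was another: these fragments held 1124 and 1290.3 CPM in XiteE-del, 959 and 1099 in XiteE-inv, 1525 and 1483 in XiteC-del, 678 and 787 in XiteC-inv, and 1103 and 1129 in WT. There XiteC-del lay above both WT libraries, and XiteC-inv and XiteE-inv lay below both. The log2 differences were -0.61 in XiteC-inv (-0.59 within B100) and -0.12 in XiteE-inv (-0.20).

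Farther out on the lower side the deletions parted. Partners 300 to 600 kb away summed to 902 and 780.3 CPM in XiteE-del, 653 and 745 in XiteE-inv, 339 and 298 in XiteC-del, 329 and 374 in XiteC-inv, and 498 and 716 in WT. The 4 XiteC libraries lay below both WT libraries and the XiteE-del libraries above both. Over fragments 578 to 582 alone the XiteE-del sums in this band were 709 and 615 CPM, against 349.6 and 454 CPM in WT, a log2 difference of 0.72 (0.92 within B100). XiteE-inv showed 482 and 487 CPM there, above both WT libraries by less.

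On the higher side XiteC-inv stood apart in every band out to 1200 kb. Partners 30 to 100 kb away summed to 502 and 510.4 CPM in XiteE-del, 536 and 493 in XiteE-inv, 511 and 560.3 in XiteC-del, 1017 and 1055 in XiteC-inv, and 509.7 and 514 in WT. Partners 100 to 300 kb away summed to 973 and 891 CPM in XiteE-del, 1019 and 1015 in XiteE-inv, 897 and 879 in XiteC-del, 2401 and 2428 in XiteC-inv, and 988 and 1066 in WT. The other genotypes lay close to WT in both bands, and XiteC-inv at over 2 times WT in the second.

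Partners 300 to 600 kb away on the higher side summed to 5068 and 5058 CPM in XiteC-inv, against 2919.6 and 1309 CPM in WT. This band holds the pairs 748-576 and 714-576, and without them the sums were 3045 and 3415 CPM in XiteC-inv, against 1383 and 1167 CPM in WT. Leaving out the 2 pairs thus brought the WT libraries closer together and widened the ratio to WT 1. Beyond 1200 kb the sums followed the code, with 2359 and 2189 CPM in XiteC-inv, against 2196 and 846 CPM in WT, a log2 difference of 0.05 within B100.

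**Figure D3:**
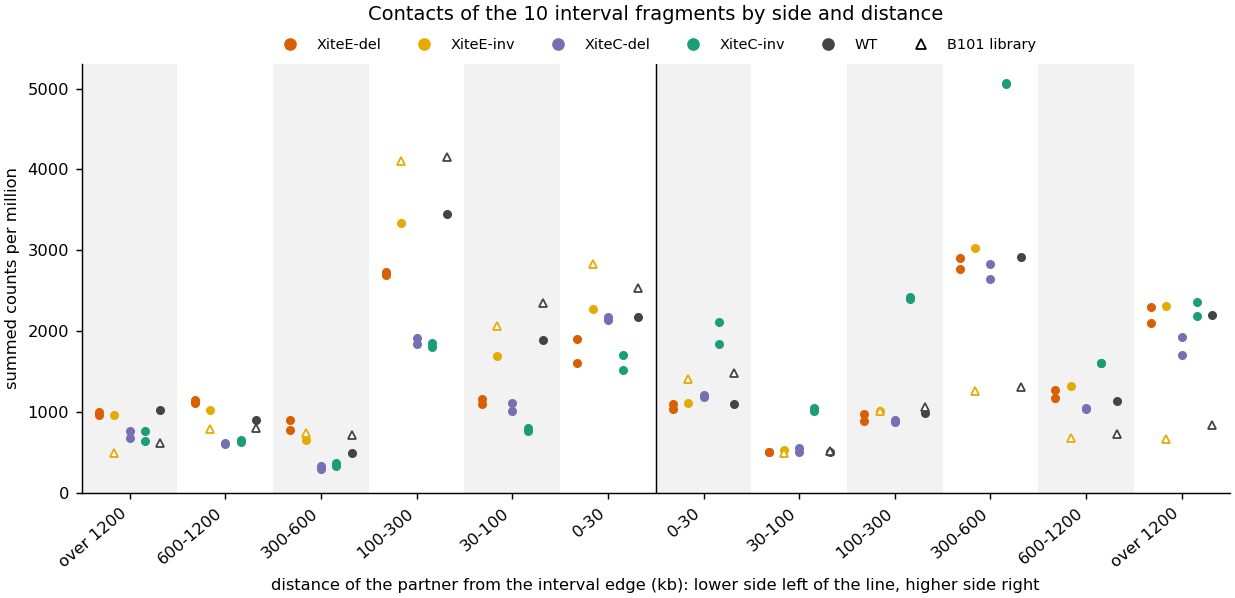
Summed CPM of the contacts of the 10 interval fragments by distance of the partner from the interval edge, lower side left of the vertical line and higher side right of it, 1 point per library; open triangles are B101 libraries. XiteC-inv lies lowest between 30 and 100 kb on the lower side and highest from 30 to 600 kb on the higher side, and in the bands over 300 kb on the higher side the B101 libraries lie below the others.

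The partner bins with the highest WT level of each band showed these differences region by region. On the lower side, the bin X:100560001-100590000 held 674 and 748 CPM in XiteE-del, 1142 and 1503 in XiteE-inv, 703 and 628 in XiteC-del, 424 and 469 in XiteC-inv, and 1296 and 1701 in WT. The bin X:100440001-100470000, 165 kb below the interval, held 555 and 548 CPM in XiteE-del, 743 and 1113 in XiteE-inv, 393 and 319.5 in XiteC-del, 382 and 394 in XiteC-inv, and 827 and 1099 in WT. The bin X:100170001-100200000, 435 kb below, held 512 and 463 CPM in XiteE-del, 416 and 441 in XiteE-inv, 188 and 145 in XiteC-del, 172 and 211 in XiteC-inv, and 303 and 445 in WT. The 4 XiteC libraries lay below both WT libraries in all 3 bins, and XiteE-del lay below both in the first 2 and above both in the last. On the higher side, the bin X:100680001-100710000 held 214 and 242 CPM in XiteE-del, 247 and 191 in XiteE-inv, 232 and 245 in XiteC-del, 462 and 497 in XiteC-inv, and 225 and 197 in WT. The bin X:100800001-100830000, 165 kb above, held 226 and 209 CPM in XiteE-del, 234 and 241 in XiteE-inv, 275 and 245 in XiteC-del, 620.3 and 695 in XiteC-inv, and 248 and 253 in WT. In both, XiteC-inv lay above every other library, of which the highest had 247 and 275 CPM.

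The bin X:101130001-101160000, 495 kb above the interval, holds the partner of the pair 748-576 and the most counts of the higher side beyond 100 kb. It held 1258 and 1190.1 CPM in XiteE-del, 1317 and 336 in XiteE-inv, 1283 and 1277 in XiteC-del, 1934 and 1881 in XiteC-inv, and 1280.4 and 363 in WT. XiteC-inv was highest here too, and the B101 libraries were lowest. In the bins next to the interval XiteC-inv again leaned to the higher side: X:100590001-100620000, below it, held 1519.9 and 1708 CPM in XiteC-inv, against 2176 and 2533 CPM in WT. Its counterpart above, X:100650001-100680000, held 1846 and 2118 CPM in XiteC-inv, against 1096 and 1487 CPM in WT. Beyond 600 kb the highest bins followed the code on the higher side, as at X:101850001-101880000 with 443 and 445 CPM in XiteC-inv, against 453 and 109 CPM in WT. On the lower side X:99690001-99720000, 915 kb below, held 126 and 104 CPM in XiteC-inv, against 137 and 81.3 CPM in WT.

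Across all 145 partner bins of 30 kb, 52 on the lower and 93 on the higher side, the side of a partner largely decided the sign in XiteC-inv. On the higher side 57 bins had both XiteC-inv libraries above both WT libraries and 3 below, and on the lower side 1 above and 29 below. Over all 11769 bin pairs tested in the table, 17.7% lay above and 11.8% below in this comparison. In XiteC-del 30 of the lower-side bins lay below both WT libraries and 15 of the higher-side bins above, where 8.80% of all bin pairs lay below and 20.6% above. In XiteE-del 11 lower-side and 26 higher-side bins lay above, against 22.3% of all bin pairs, and 8 on each side below, against 10.6%. In XiteE-inv 7 bins lay above and 9 below, against 6.78% and 11.8% of all bin pairs. These comparisons share the WT libraries and were used to place the interval, so nothing more is read from the counts.

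**Figure D4:**
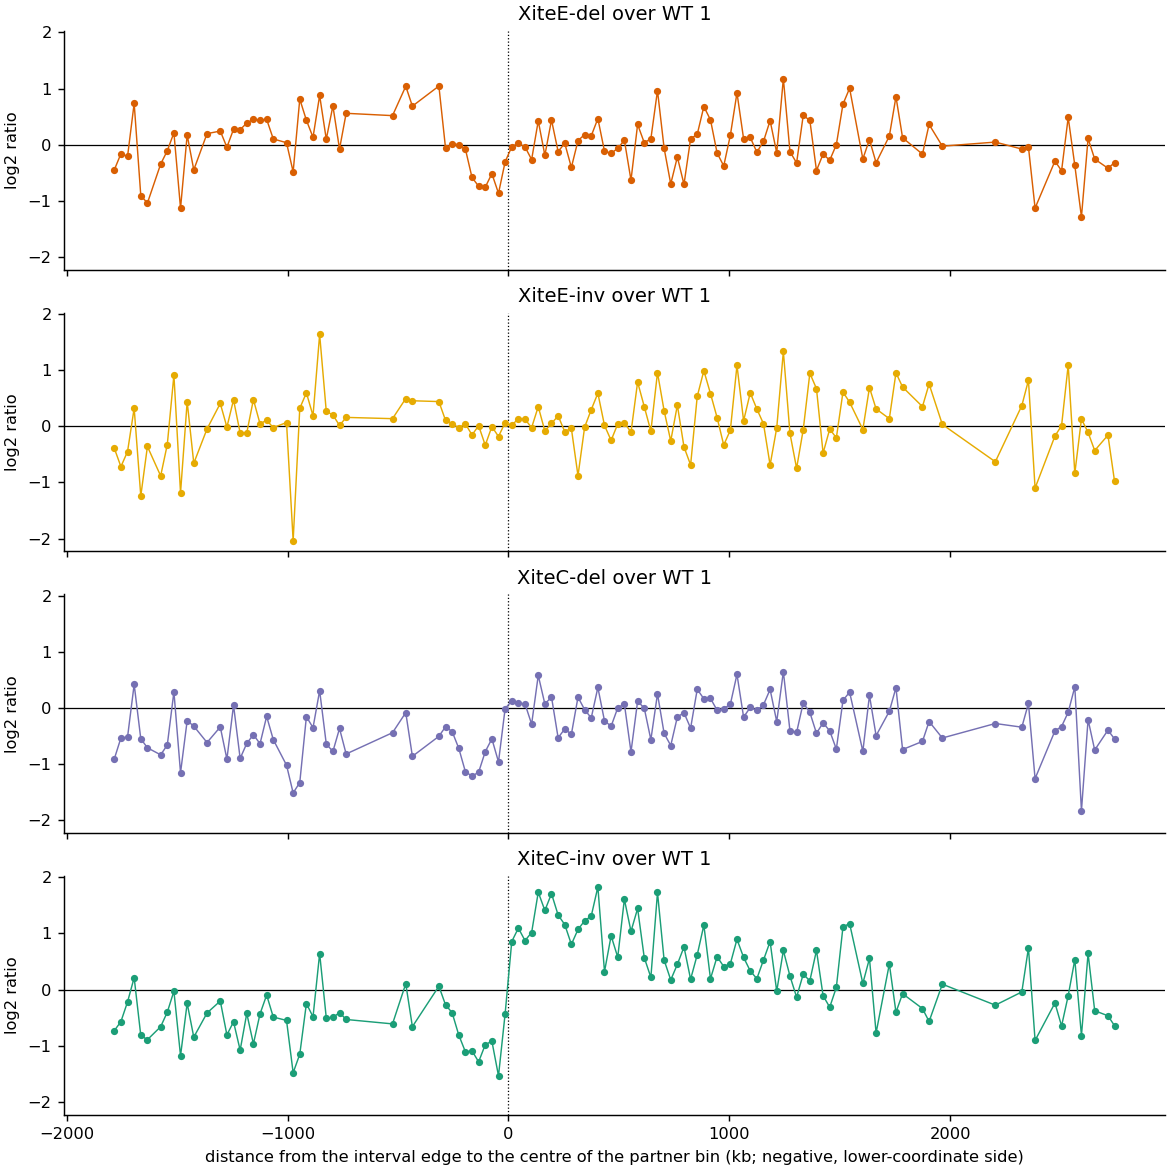
Log2 ratio of each genotype to WT 1, B100 libraries only, in the 120 partner bins of 30 kb with at least 20 CPM in WT 1, against distance from the interval edge in kb (negative on the lower side; the lines join bins in order and pass over bins left out). XiteC-inv is above 0 in 55 of 74 higher-side bins and below 0 in 42 of 46 lower-side bins. XiteC-del is below 0 in 42 of 46 lower-side bins. XiteE-inv is above 0 in 26 of 46 lower-side and 43 of 74 higher-side bins, and XiteE-del in 26 and 36. Lower-side sums of XiteE-del are under WT 1 out to 300 kb and over it from 300 to 1200 kb.

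The medians of that profile, taken within B100, were -0.54 on the lower and 0.52 on the higher side for XiteC-inv. The highest ratio of XiteC-inv, 1.83, lay 405 kb above the interval, and the lowest, -1.54, lay 45.0 kb below it. The medians were -0.59 and -0.12 for XiteC-del, 0.07 and -0.01 for XiteE-del, and 0.04 and 0.05 for XiteE-inv, the lower side given before the higher. Both XiteC genotypes thus had a lower-side median below 0, and only XiteC-inv a higher-side median above 0.05 in this profile. The lower-side median of XiteE-del covers distances of opposite sign. Within B100 its lower-side sums over all 10 fragments differed from WT by -0.74 at 30 to 100 kb and -0.35 at 100 to 300 kb. At 300 to 600 kb and 600 to 1200 kb the differences were 0.76 and 0.32. The profile counts all 10 fragments, 576 and 577 included, which XiteC-del lacks; over 578 to 582 the lower-side sum differed from WT by -0.23 in XiteC-del and -0.71 in XiteC-inv.

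The balance of sides was then measured for each fragment as the log2 ratio of its lower-side to its higher-side counts, with partners 30 kb to 1.5 Mb away. Values above 0 mean more counts on the lower side. Fragment 578 had a balance of 0.93 and 1.35 in XiteE-del, 1.49 and 1.73 in XiteE-inv, 1.03 and 0.90 in XiteC-del, -1.48 and -1.64 in XiteC-inv, and 1.39 and 1.28 in WT. Fragment 577 had a balance of 1.41 and 1.44 in XiteE-del, 1.48 and 1.78 in XiteE-inv, -1.03 and -0.71 in XiteC-inv, and 1.33 and 1.55 in WT. Fragment 575 had a balance of 1.22 and 1.54 in XiteE-inv, 0.55 and 0.49 in XiteC-del, -1.20 and -1.01 in XiteC-inv, and 1.56 and 1.70 in WT. All 3 fragments leaned to the lower side in WT and to the higher side in XiteC-inv, with no overlap.

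In all 10 fragments both XiteC-inv libraries had a balance below both WT libraries, against 13.9% of the 1013 X fragments tested, and 0 had it above, against 20.1%. The median difference from WT was -2.43 over the 10 fragments and 0.03 over all 1013. In XiteC-del 9 of the 10 lay below both WT libraries, against 15.8% of all fragments, with medians of -0.98 and 0.01; this includes 576 and 577, which are lost there. Fragment 582 was the exception, with 0.67 and 0.61 in XiteC-del, against 0.44 and 0.49 in WT. In XiteE-del 4 lay below, 3 of them lost fragments, against 17.0% of all fragments. In XiteE-inv 2 lay below and 2 above, against 9.67% and 10.2%, with medians of 0.05 and 0.00.

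Fragments 576, 580 and 581 also moved with the code, and the medians above use both WT libraries. At these 3 fragments XiteC-inv differed from WT by -3.25, -2.56 and -1.01, but by -1.98, -1.94 and -0.68 within B100. At 580 and 581 XiteC-del differed by -0.84 and -0.58, but by -0.22 and -0.25 within B100. Fragment 576 had a balance of -1.12 and 1.33 in XiteE-inv 1 and 2 and -1.25 and 1.29 in WT 1 and 2. Without the pairs 748-576 and 714-576 it was -1.95 and -1.68 in XiteC-inv, against 0.93 and 1.78 in WT. The direction of the XiteC-inv difference at 576 was the same with and without these pairs, and its size against WT 1 was larger without them.

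**Figure D5:**
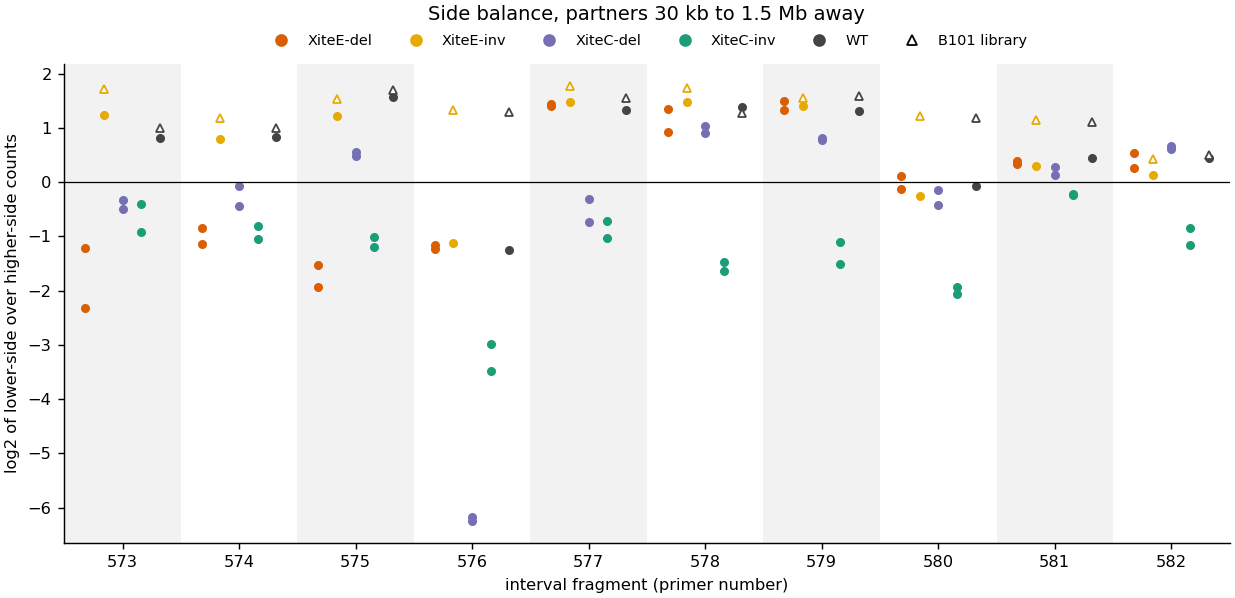
Log2 ratio of lower-side to higher-side counts of each interval fragment, partners 30 kb to 1.5 Mb away, 1 point per library with WT rightmost in each column; open triangles are B101 libraries. XiteC-inv lies below 0 and below WT at all 10 fragments, XiteE-inv has the sign of the WT library of the same code at each fragment, and 576, 580 and 581 differ between B100 and B101.

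The 2 inversions were also set against each other, without WT and with no fragment missing from either; this comparison was added after the values above were seen, so it is a description. In all 10 fragments both XiteC-inv libraries had a balance below both XiteE-inv libraries, against 15.2% of the 1013 X fragments. The fitted difference had a median of -2.48 over the 10 fragments and 0.03 over all 1013. Fragment 578 had a balance of -1.48 and -1.64 in XiteC-inv, against 1.49 and 1.73 in XiteE-inv, a fitted difference of -3.17 with an SE of 0.174. Fragment 579 differed by -2.78 with an SE of 0.162. Fragment 575 differed by -2.48 with an SE of 0.163.

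Fragment 580 had a balance of -2.06 and -1.94 in XiteC-inv, against -0.25 and 1.21 in XiteE-inv. Fragments 576 and 581 differed by -3.33 and -0.95, with SEs of 0.868 and 0.305. All 3 are the fragments whose balance differed between B100 and B101. Since XiteE-inv is a single clone, its spread is that of 2 libraries of 1 clone.

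Fragments next to the interval showed part of this difference. Fragment 572, just below it, differed between XiteC-inv and XiteE-inv by -1.37, and fragment 583, just above it, by -1.01. The median difference was -0.61 over the 13 fragments within 30 kb below the interval and -0.09 over the 11 within 30 kb above it. At 30 to 100 kb it was 0.04 below and 0.07 above. For fragments within 30 kb below the interval, the nearest higher-side partners counted lie in or beyond it, since only partners over 30 kb away enter the balance.

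Set against WT, the fragments beside the interval differed by genotype. In XiteC-del all 13 fragments within 30 kb below the interval had a difference under 0, with a median of -0.75, and none of the 11 above did, with a median of 0.39. In XiteE-del the corresponding medians were 0.37 below and -0.20 above. The fit's counts of interval fragments past an edgeR adjusted p of 0.05 were 7 in XiteC-inv (1.18% of all fragments), 3 in XiteC-del (0.691%), of which 2 are lost there, 3 in XiteE-del (0.296%), all lost there, and 0 in XiteE-inv (0%). These comparisons placed the interval, so nothing is read from the counts.

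No single bin pair of the interval was called. In the edgeR fit of 11769 bin pairs of 30 kb, with a biological coefficient of variation of 62.1% and 5 residual degrees of freedom, all 145 bin pairs of the interval were tested and 0 were called in each of the 4 comparisons with WT, in XiteC-del minus XiteE-del and in XiteC-inv minus XiteE-inv (0% of all bin pairs in each). At an unadjusted p under 0.05, 43 interval bin pairs were counted between XiteC-inv and XiteE-inv (3.33% of all bin pairs) and 18 between XiteC-del and XiteE-del (2.20%). Against WT the counts at this level were 39 in XiteC-inv (2.37% of all bin pairs), 17 in XiteC-del (1.64%), 12 in XiteE-del (3.41%) and 2 in XiteE-inv (2.06%). DESeq2 called 3 between the inversions (0.156% of all bin pairs), 2 between the deletions (0.0595%), 4 in XiteC-inv against WT (0.0510%) and 0 in the other 3 comparisons with WT. With the code as a term in the edgeR fit, 26 were called between the inversions, 16 higher and 10 lower in XiteC-inv (0.297% of all bin pairs), and 8 between the deletions, all lower in XiteC-del (0.212%).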

How the data were processed

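5C counts were analysed for 10 libraries of 5 genotypes, 2 each; the other samples of the 73 in the series were not analysed here. The deposited matrices list the authors' unnormalized counts, 1 value per primer pair, and the deposited primer lists give fragment positions, which are no measurement. Per the submitters' processing notes the aligner was Bowtie2 and the build mm9; other steps are not given in the sources used here. The members, the distance bands, the named fragments and the tests were chosen with earlier results of these data known. The named features are every interval fragment and the partner bin with the highest WT level of each band and side; called bin pairs were also to be named, and there were none.

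Counts were scaled to library totals (16267499 to 23928188). In edgeR 4.0.16 (R 4.3.3) counts were summed over 30 kb bin pairs with a mean of at least 10 and fitted with a mean per genotype and the library total as offset; the side balance was fitted with a term per library and a side effect per genotype, for fragments with a mean of at least 10 counts on each side. Adjusted p-values are Benjamini-Hochberg over all features of a fit. Both fits were tested on simulated data. DESeq2 1.42.0, other scalings, filters, bin sizes and distances, a replicate block, the B code and leaving out libraries were tried. Over all bin pairs the median log2 difference from WT was 0.17 in XiteE-del, 0.12 in XiteC-del, 0.07 in XiteC-inv and -0.03 in XiteE-inv. WT and XiteE-inv replicates are 1 line and 1 clone, so p-values measure the spread between these libraries. Counts are not corrected for primer efficiency, PCR duplicates or distance.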

Additional observations from a re-analysis of the deposited data

Results flagged for a closer look

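The pair 575-580 has both fragments inside the interval and so is no contact counted above. It had 456 and 443 CPM in XiteC-del, against 114 and 144 in WT, with a mean of 449 ± 8.82 CPM in XiteC-del and 129 ± 20.9 CPM in WT (SD, n = 2 each). It drew attention because both XiteC-del libraries had at least 3 times the higher WT value and at least 10 CPM. The pair 575-578 had 381 and 329 CPM in XiteC-del, against 91.7 and 111 in WT, just short of that limit in 1 library. Fragments 576 and 577, which lie between these partners, are the ones XiteC-del lacks.

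At 2 interval fragments, 573 and 578, the inversions lay on opposite sides of WT in side balance, and this was not tested. Fragment 573 had 1.24 and 1.71 in XiteE-inv, -0.40 and -0.92 in XiteC-inv, and 0.82 and 0.99 in WT. Both XiteC-inv libraries were below and both XiteE-inv libraries above both WT libraries there, as at fragment 578. Over all 1013 X fragments, XiteE-inv lay above both WT libraries in 10.2% and XiteC-inv below both in 13.9%. The share of fragments with both at once is not given here, so nothing is read from the count. Within B100 XiteE-inv differed from WT by 0.42 at 573 but only by 0.09 at 578.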

How the results depend on the processing

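Counts of called interval bin pairs, 0 in every comparison, changed under 4 of the alternatives; the share of all bin pairs stands in brackets. With the B code as a term they were 2 in XiteE-del (0.0425%), 6 in XiteC-del (0.110%) and 21 in XiteC-inv (0.263%) against WT, 8 in XiteC-del minus XiteE-del (0.212%) and 26 in XiteC-inv minus XiteE-inv (0.297%). Without both B101 libraries they were 1 (0.0764%), 4 (0.0934%), 22 (0.263%), 8 (0.238%) and 20 (0.255%) in the same order. In 15 kb bins they were 34 in XiteE-del (0.0966%) and 37 in XiteC-del minus XiteE-del (0.107%). With DESeq2 they were 4 in XiteC-inv against WT (0.0510%), 2 between the deletions (0.0595%) and 3 between the inversions (0.156%). The other 39 of 54 such counts did not move. Leaving out 1 library gave 0 to 1 in XiteC-inv against WT (1 without either XiteE-inv library) and 0 elsewhere. WT and XiteE-inv alone carry both B codes; the cause of the added calls was not tested.

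Counts of interval fragments past an edgeR adjusted p of 0.05 in side balance come from the libraries that placed the interval, and nothing rests on them. They were 3 in XiteE-del (0.296% of all fragments), 3 in XiteC-del (0.691%), 7 in XiteC-inv (1.18%) and 0 in XiteE-inv (0%) against WT, and 8 between the inversions (1.28%); of the 6 in the deletions, 5 are fragments the genotype lacks. These shares belong to the main fit. For the refits that follow the share of all fragments is not given here, so their counts are no support either. With partners 100 kb to 1.5 Mb away the count in XiteE-del was 1. Leaving out 1 library gave 1 to 3 in XiteE-del (1 without XiteE-del 2 or WT 2), 1 to 3 in XiteC-del (1 without either XiteC-del library), 5 to 8 in XiteC-inv, 5 to 9 between the inversions (5 without XiteC-inv 2) and 0 in XiteE-inv.

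Same-numbered libraries correlated at -0.14 to 0.54 in their deviations over 10 pairs of genotypes, over 0.1 in 3. The highest, 0.54, was that of XiteE-inv with WT, whose numbers 1 and 2 coincide with B100 and B101; the other genotypes share no such code, so the numbers do not pair the series as a whole. With a replicate block 0 bin pairs were called in every comparison. The side balance was called at 3 interval fragments in XiteE-del, 0 in XiteE-inv, 3 in XiteC-del, 8 in XiteC-inv and 9 between the inversions. The share of all fragments called in this refit is not given here, so nothing is read from these counts.

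Log2 ratios of summed levels to WT moved by more than the replicate spread in 12 of 84 settings, and in 4 of these the sign reversed, each time in XiteE-del. With partners over 30 kb away the lower side of XiteC-del stood at -0.84, against -0.65 with all partners. The rest came from fragments 578 to 582 alone, chosen after seeing the data. With these the log2 ratio of all contacts was 0.20 in XiteE-del and -0.027 in XiteC-del, against -0.05 and -0.26 over all 10 fragments. Without the B101 libraries the log2 ratio of all contacts over 578 to 582 was 0.11 in XiteE-del, -0.12 in XiteC-del and 0.074 in XiteC-inv. Over all 10 fragments it was -0.12, -0.33 and 0.11 in the same order. The log2 ratio of the lower side over 578 to 582 was 0.093 in XiteE-del, -0.23 in XiteC-del and -0.71 in XiteC-inv, against -0.30, -0.65 and -0.83 over all 10 fragments. Without the B101 libraries this lower-side ratio was 0.11, -0.22 and -0.70 over 578 to 582 in the same genotypes. Leaving out 1 library moved none of these ratios by more than the spread. With TMM scaling the median log2 difference over all bin pairs was 0.02 in XiteE-del and -0.02 in XiteC-del against WT, where library totals gave 0.17 and 0.12, and -0.0048 between the inversions, where they gave 0.11.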
